A study of Mus musculus with 2 samples.

Results

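The collagen genes of the mouse heart were described as the protein-coding genes whose symbol is Col, a number, the letter a and a number, such as Col1a1. There were 44 of them among 22028 protein-coding genes and 55536 genes of all kinds in the gene tables. The rule used names alone and no measured value. The samples were whole heart tissue of 2 male B6CASTF1/J mice, an F1 hybrid strain, 25 days old, with 1 library of total RNA per animal, prepared from 300 ng and sequenced with synthetic spike-in RNAs added. Both animals were of 1 group with no treatment named, so that no groups were compared. The labels call them biological replicates 1 and 2 and number the animals 3 and 4, but give both a single donor identifier.

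Collagens are secreted proteins in which 3 chains wind into a helix, and glycine has to recur at a fixed spacing along each chain (the Gly-X-Y triplet) for the helix to close. Fibrillar collagens form the tensile fibres between heart muscle cells and are made mainly by fibroblasts. Type IV collagen forms the sheet-like mesh of basement membranes around muscle cells and vessels, beaded type VI collagen lies between mesh and fibres, and the FACIT collagens sit on the surface of fibrils. Each chain is hydroxylated, folded with dedicated chaperones, trimmed outside the cell and cross-linked.

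The libraries held 38253821 (replicate 1) and 40655101 (replicate 2) estimated counts in genes. Heart muscle markers summed to 16554 and 17572 TPM (abundance per transcript length, scaled to a fixed total), fibroblast markers to 581.9 and 520.7, and endothelial markers to 186.9 and 202.5. All 4, all 6 and all 5 genes of these lists, in that order, stood at 1 TPM or more in both hearts. Of 6 cartilage genes 1 did, Comp (2.36 and 2.49 TPM). Sox9 stood at 0.89 and 0.80 TPM, Hapln1 at 0.13 and 0.19 and Acan at 0.04 and 0.07. Matn1 and Matn3, both defining genes of cartilage matrix, were at 0 counts in both hearts. Summed adipocyte genes (213.6 and 30.07 TPM) and red cell genes (46360 and 23306 TPM) were lower in replicate 2, as were Schwann cell genes (a log2 ratio of -1.20), and their part in the collagen values was not tested. The tissue is a mixture, so fewer cells of a type and less RNA per cell cannot be told apart.

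In both hearts 20 collagen genes reached 1 TPM, 45.5% of the 44, against 49.5% of all protein-coding genes. Col4a6 reached it in replicate 1 alone, and 23 stayed below it in both hearts. Together the collagens took 131682 and 141771 counts, or 0.344% and 0.349% of gene counts, and 0.154% and 0.158% of the TPM of protein-coding genes. This output was concentrated in few genes. Col4a1 and Col3a1 made up 43.6% ± 0.349 (SD, n = 2) of collagen TPM, the 5 highest genes 73.3% ± 0.909 and the 8 highest 86.8% ± 0.212. The median over the 44 genes was 0.645 TPM, against 1.07 over all protein-coding genes. In the order of mean levels, 10 of the 12 gaps between neighbours among the 13 genes at 10 TPM or more exceeded the spread between the hearts (the difference had 1 sign in both and its mean exceeded its SD). The exceptions were Col6a3 and Col5a1, and Col5a2 and Col5a3. Over the whole order 21 of 43 gaps did so. The order was set by the same values, and with only 2 hearts the rule is easily met, so these counts do not show a stable order. The order of Col4a1 and Col3a1, and that of Col1a1 and Col1a2, changed with the processing.

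**Figure D1:**
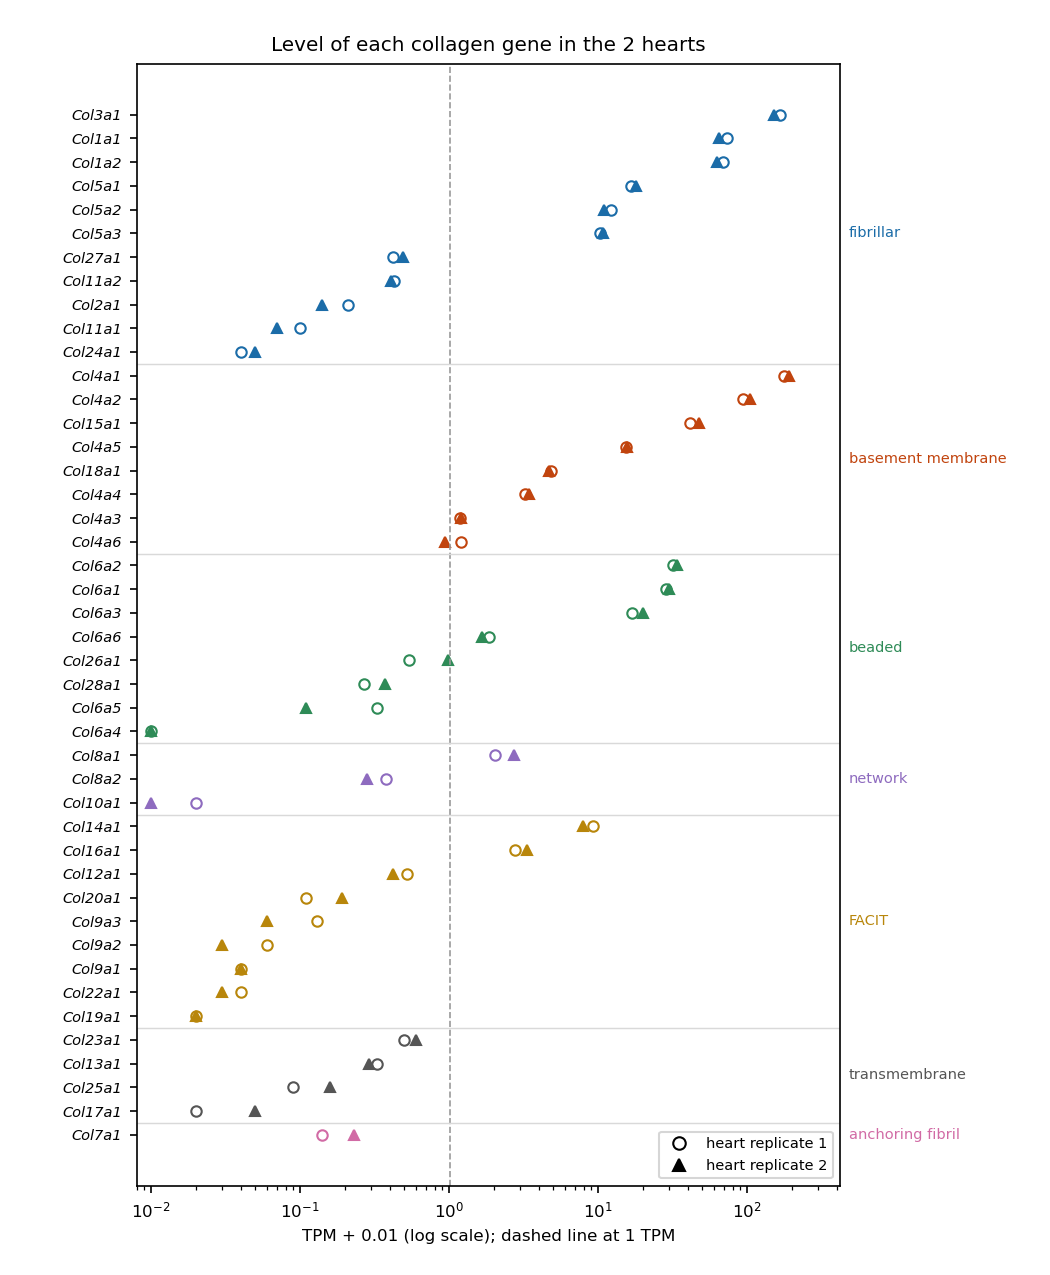
Level of each of the 44 collagen genes in TPM + 0.01 on a log axis, by group, with open circles for replicate 1 and triangles for replicate 2. The circle and the triangle of a gene lie close together above 1 TPM, and every group other than the transmembrane collagens and Col7a1 has at least 1 gene to the right of the dashed line at 1 TPM.

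Fibrillar collagens took 44.5% of collagen TPM in replicate 1 and 40.4% in replicate 2. Of the 11 genes, 6 were at 1 TPM or more in both hearts, and all 6 encode chains of types I, III and V. Col3a1 (ENSMUSG00000026043.18, mm10 chromosome 1, 45311538 to 45349706), the only chain of the pliant type III fibril, stood at 166.1 TPM in replicate 1, against 151.1 in replicate 2. Col1a1 (chromosome 11, 94936224 to 94953042) and Col1a2 (chromosome 6, 4504814 to 4541544), the chains of type I, the stiffest and most abundant collagen of mature tissue, stood at 72.93 and 65.15 TPM and at 68.88 and 62.87 TPM. These 3 genes were all lower in replicate 2. The messenger RNA of type III was thus 2.30 times as abundant as Col1a1 by mean TPM (log2 ratio 1.20 ± 0.02). This size depended on the processing. It was 3.25 times in the second quantification (1.70 ± 0.03) and 2.15 times with complete coding transcripts alone (1.10 ± 0.02). Type V nucleates fibrils and limits their width. Its chains Col5a1 (16.65 and 17.90 TPM), Col5a2 (12.19 and 10.92) and Col5a3 (10.33 and 10.80) lay within a narrow range. Col5a2 had a lower TPM in replicate 2. Col5a1 and Col5a3 had a higher one, a direction that turned when counts were scaled by spike-ins.

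The remaining fibrillar genes are known mainly from cartilage and bone, and none reached 0.5 TPM in either heart. Col11a2 was at 0.42 and 0.40 TPM and Col27a1 at 0.41 and 0.48. Col2a1, the fibril of cartilage, was at 0.20 and 0.13 TPM from 23 and 18 counts. Col11a1, the partner of Col11a2 and close relative of Col5a1, was at 0.09 and 0.06 TPM from 16 counts in each heart, so that Col5a1 exceeded it by a log2 ratio of 6.64 ± 0.25. Col24a1 had 6 and 7 counts.

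The fibrillar chains share a long unbroken run of triplets. In the longest annotated protein of each gene with a start and a stop codon, the longest run held 216 to 344 Gly-X-Y triplets (median 338), and only Col24a1 (216) and Col27a1 (217) had fewer than 337. Many exons held whole triplets. Of the 627 internal coding exons of the fibrillar genes, 305 (48.6%) were exactly 54 bases long, which is 6 triplets, and 83.9% were a multiple of the 9 bases of a triplet. Over all collagens 24.5% of 1914 internal coding exons had 54 bases, and over the 21523 other protein-coding genes 0.446% of 156384 did, while 13.7% of theirs were a multiple of 9. To show this unit, 1 exon is printed for each of 4 expressed fibrillar chains. It is the first 54-base exon within the main run that starts with the glycine codon of a triplet. The first codon of each triplet is in capitals. The exons lie on the plus strand of mm10, at chr1:45325360-45325413 (Col3a1, exon 6, residues 176 to 193), chr11:94939904-94939957 (Col1a1, exon 8, residues 186 to 203), chr6:4515481-4515534 (Col1a2, exon 8, residues 115 to 132) and chr2:27965251-27965304 (Col5a1, exon 15, residues 574 to 591).
Col3a1 exon: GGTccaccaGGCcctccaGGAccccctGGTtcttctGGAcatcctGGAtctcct
Col1a1 exon: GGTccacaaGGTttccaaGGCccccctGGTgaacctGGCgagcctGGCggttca
Col1a2 exon: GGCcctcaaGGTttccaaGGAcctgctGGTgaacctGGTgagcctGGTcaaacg
Col5a1 exon: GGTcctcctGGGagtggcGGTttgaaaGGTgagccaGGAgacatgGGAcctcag
Their start with a glycine codon and their 6 triplets in register follow from how they were chosen. The exons of Col1a1 and Col5a1 each hold a further glycine codon, in lower case, at another place in a triplet. The share of the codon GGT among the first codons of the triplets ranged from 16.1% (Col27a1) to 53.8% (Col1a1) in the 11 fibrillar genes. In the 6 type IV genes it ranged from 15.7% to 32.0%, so that the ranges overlap. Col1a2 (51.3%), Col2a1 (40.7%) and Col3a1 (40.6%) followed Col1a1, while Col5a1 (28.3%) and Col5a3 (24.6%) lay within the range of type IV.

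**Figure D2:**
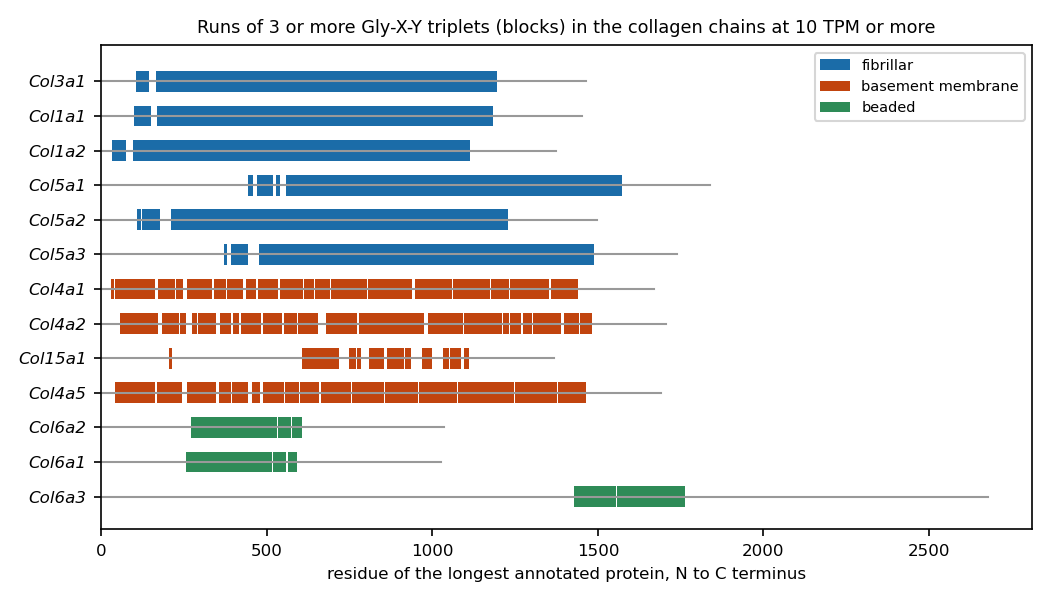
Runs of 3 or more Gly-X-Y triplets (blocks) along the longest complete annotated protein (line) of the 13 collagen genes at a mean of 10 TPM or more, with the residue number on the horizontal axis and colour for the group. Fibrillar chains show 1 long block beside short ones, type IV chains 23 or 24 short blocks, and type VI chains a short helix between long stretches without triplets.

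Basement membrane collagens took 43.2% of collagen TPM in replicate 1 and 46.7% in replicate 2, so that the fibrillar group was the larger in replicate 1 and the basement membrane group in replicate 2. Of the 8 genes, 7 were at 1 TPM or more in both hearts. Col4a1 (ENSMUSG00000031502.11) and Col4a2 (ENSMUSG00000031503.13) encode the chains of the type IV trimer found in nearly all basement membranes, in which the alpha 1 chain is in the majority. Col4a1 stood at 176.9 and 192.1 TPM, the highest gene-level value of any collagen in the first quantification, and Col4a2 at 94.14 and 104.6. Both had a higher TPM in replicate 2, a direction that turned when counts were scaled by spike-ins.

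The other type IV chains form trimers that are restricted to some tissues, such as the filter of the kidney. Col4a5 stood at 15.50 and 15.73 TPM, Col4a4 at 3.21 and 3.42, Col4a3 at 1.17 and 1.19, and Col4a6 at 1.20 and 0.93. Col4a5 was thus 13.2 times as high as Col4a3 and 14.7 times as high as Col4a6, chains it is known to join in separate trimers (log2 ratios 3.62 ± 0.0010 and 3.76 ± 0.25). Col4a3 lay below Col4a4, its partner in the trimer, with a log2 ratio of -1.42 ± 0.05, which the second quantification put at -0.69 ± 0.31. Types XV and XVIII sit at the outer face of basement membranes and release the fragments restin and endostatin. Col15a1 stood at 41.19 and 47.19 TPM, and Col18a1 at 4.82 and 4.66.

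Each pair of type IV genes lies head to head in the genome. Col4a1 (chromosome 8, 11198423 to 11312826, minus strand) and Col4a2 (11312805 to 11449287, plus strand) overlap by 22 bases at their starts, and whether counting used strand there is not stated. Col4a4 (chromosome 1, ends at 82586849, minus strand) and Col4a3 (starts at 82586921, plus strand) are 71 bases apart. Col4a6 (chromosome X, minus strand) and Col4a5 (plus strand) are 1308 bases apart. Within a pair the levels were unequal all the same, with the first-named gene of the pairs at mean TPM of 184.5 against 99.36, 3.32 against 1.18 and 1.07 against 15.62. The bases shared by or lying between the starts are printed, from the plus strand of mm10 (chr8:11312805-11312826 and chr1:82586850-82586920), with a match to GGGCGG in capitals.
Col4a1 and Col4a2 overlap: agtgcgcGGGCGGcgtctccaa
Col4a4 to Col4a3: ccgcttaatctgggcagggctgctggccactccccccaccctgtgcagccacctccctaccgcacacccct
The first is 72.7% and the second 69.0% G or C, and the second holds neither the motif TATAAA nor the motif CCAAT, and no GGGCGG, on either strand. Promoter windows of 300 bases (250 before to 50 after a start, from RefSeq on GRCm38.p6) matched 35 of the 44 collagens, in 38 windows. Of these collagens 3 had 2 windows each, and the starts of Col4a1 and Col4a2 overlap, so the windows are not all independent. GGGCGG was found on either strand in 23 of these windows (60.5%) against 35.7% of all 32851 windows of that length, CCAAT in 34.2% against 37.4%, and TATAAA in 13.2% against 13.6%. Of the 13 collagens at 10 TPM or more, Col1a1 and Col5a2 had no window and were not searched. Of the other 11, Col4a1, Col4a2, Col4a5, Col1a2, Col5a1, Col5a3 and Col6a2 held GGGCGG, and Col3a1 held TATAAA. Among the same 11, Col1a2, Col4a1, Col4a2, Col4a5 and Col5a3 held the motif CCAAT. These are matches of letters and not sites of binding.

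The triplets of basement membrane chains are broken many times, a feature known to make the mesh flexible. The longest run was 30 to 66 triplets, and the chains held 13 to 27 separate runs, against 2 to 5 in fibrillar chains. Few of their internal coding exons had 54 bases (16 of 361, or 4.43%). A break is printed for each of 3 expressed basement membrane chains and for Col6a1. The first codon (glycine) of each triplet on both sides is in capitals. The long lower-case stretch holds the last 2 codons of the triplet before the break and then the break itself. The coordinates of mm10 are chr8:11217552-11217963 on the minus strand (Col4a1, residues 1050 to 1069, an intron left out), chr4:47289334-47289526 on the plus strand (Col15a1, residues 844 to 872, an intron left out), chr8:11429405-11429473 on the plus strand (Col4a2, residues 763 to 785) and chr10:76714441-76714708 on the minus strand (Col6a1, residues 508 to 527, an intron left out).
Col4a1 break: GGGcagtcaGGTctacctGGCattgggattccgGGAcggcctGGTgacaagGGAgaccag
Col4a2 break: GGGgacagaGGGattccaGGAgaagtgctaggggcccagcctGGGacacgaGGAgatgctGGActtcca
Col15a1 break: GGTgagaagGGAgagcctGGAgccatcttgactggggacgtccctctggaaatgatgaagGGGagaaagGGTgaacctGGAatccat
Col6a1 break: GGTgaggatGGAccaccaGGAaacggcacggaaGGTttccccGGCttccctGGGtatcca
The break is 2 residues long in Col4a1 and in Col6a1, 5 in Col4a2 and 11 in Col15a1. Only short breaks were eligible for printing, and of these the one between the longest neighbouring runs was taken. Longer breaks exist, as between residues 718 and 749 of Col15a1 and between residues 654 and 679 of Col4a2.

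Beaded collagens took 10.2% and 10.9% of collagen TPM, nearly all of it in 3 chains of type VI. Col6a2 stood at 31.78 and 33.64 TPM, Col6a1 at 28.48 and 29.68, and Col6a3 at 16.86 and 20.00. Each type VI trimer needs the alpha 1 and alpha 2 chains and a longer one that is usually alpha 3. Col6a1 lay only slightly below Col6a2 (log2 ratio -0.17 ± 0.02), and Col6a3 lay below Col6a1 (-0.66 ± 0.13, and -1.34 ± 0.06 with complete coding transcripts alone). The chains that can replace alpha 3 were far lower, with Col6a6 at 1.84 and 1.65 TPM, Col6a5 at 0.32 and 0.10, and Col6a4 listed at 0.00 TPM in both hearts, from 1 and 0 counts. In replicate 2 a count of 0 leaves room for up to 3 counts, which is 0.0738 CPM (counts scaled to a fixed library total). These 3 genes lie side by side on chromosome 9 in 1 direction, from 105687809 to 106096783, with gaps of 27917 and 28810 bases. Col6a5, Col6a6 and Col3a1 were the 3 collagens whose counts were not whole numbers (within 0.005), and the others had whole counts in both hearts. The 2 members outside type VI were low, with Col26a1 at 0.53 and 0.97 TPM and Col28a1 at 0.26 and 0.36.

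The 3 remaining groups and Col7a1 contributed little. The FACIT group held 1.64% and 1.51% of collagen TPM, with 2 of 9 genes at 1 TPM in both hearts. Col14a1, which binds fibrils in soft tissue, stood at 9.18 and 7.87 TPM, and Col16a1, a minor component of fibrils and microfibrils, at 2.77 and 3.34. Col12a1, a close relative of Col14a1, was at 0.51 and 0.41 TPM, a log2 ratio to Col14a1 of -3.95 ± 0.03. Col9a1 (0.03 and 0.03 TPM), Col9a2 (0.05 and 0.02) and Col9a3 (0.12 and 0.05), the type IX chains of cartilage fibrils, had 2 to 9 counts each. Col19a1, Col20a1 and Col22a1 had 1 to 17. The network group held 0.309% and 0.375%, nearly all in Col8a1, a chain of vessel walls, at 2.04 and 2.70 TPM. Its partner Col8a2 was at 0.37 and 0.27 TPM, and Col10a1, the marker of enlarged cartilage cells, had 1 and 0 counts. No transmembrane collagen reached 1 TPM, and the group held 0.115% and 0.134%. Col23a1 was the highest of them at 0.49 and 0.59 TPM, followed by Col13a1 (0.32 and 0.28), Col25a1 (0.08 and 0.15) and Col17a1 (0.01 and 0.04, from 1 count in each heart). Col7a1, which anchors epithelium to the layer below and stands outside the 6 groups, was at 0.13 and 0.22 TPM.

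**Figure D3:**
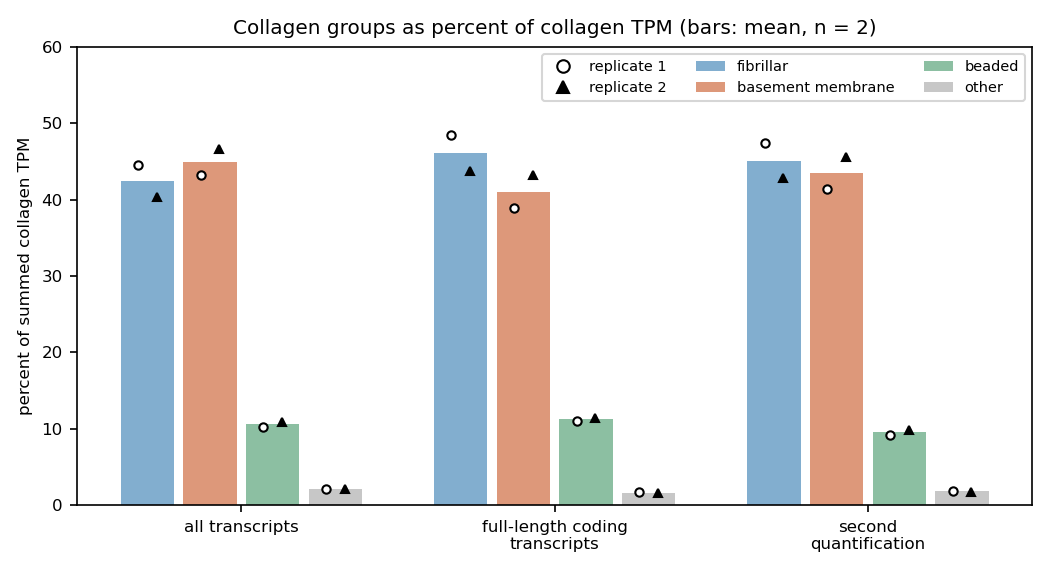
Percent of summed collagen TPM in the fibrillar, basement membrane and beaded groups and in all others together, with bars for the mean of both hearts, circles for replicate 1 and triangles for replicate 2. The order of the 2 tallest bars depends on the heart, on which transcripts are counted and on the quantification, and the beaded group lies between 9.22% and 11.4% throughout.

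Levels of whole genes depended on short transcripts. The deposited percent of each gene's abundance gave 31.1% and 32.1% of Col4a1 to Col4a1-203, a transcript of 545 bases with 10 exons. It had 801.1 and 966.4 of the gene's 25644 and 30686 counts, and its short length turned these into 54.93 and 61.64 TPM. The complete transcript Col4a1-201 stood at 116.3 and 129.7 TPM, below the 156.9 and 138.6 TPM of the complete Col3a1-201. With complete coding transcripts alone, a setting added after the values were seen, Col3a1 was therefore the highest collagen in both hearts, and Col4a1 was above Col4a2 by 0.32 on the log2 scale instead of 0.89. Counted as complete were protein-coding transcripts with a start and a stop codon and at least 50% of the gene's longest such coding length. In this setting the fibrillar group held 46.1% ± 3.30 and the basement membrane group 41.0% ± 3.06 of collagen TPM (n = 2). In the second quantification Col3a1 stood at 258.9 and 238.5 TPM and Col4a1 at 233.8 and 273.5, so that the order of the pair at gene level depended on the heart. There 32.5% and 34.6% of Col3a1 lay on Col3a1-205, a transcript of 737 bases that the first quantification gave 2.45% and 4.28%. Col15a1-203 (1755 bases) held 17.8% and 22.6% of Col15a1, but the second quantification gave it 0. Of Col6a3, 68.4% and 56.6% lay on the complete Col6a3-202.

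Among the 20 collagens at 1 TPM in both hearts, 19 had the same leading transcript in both, and each of those was a complete coding one with over 50% of its gene. The exception was Col16a1, led by Col16a1-209, annotated as a target of nonsense-mediated decay, in replicate 1 (35.6%) and by Col16a1-207, a processed transcript of 833 bases, in replicate 2 (24.3%). Its complete transcript Col16a1-201 had 0 and 27.94 counts, and at 316 and 331 counts for the gene the split rests on little.

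Chain pairs of 1 collagen type or fibril were compared by their log2 ratio in each heart, after 0.1 was added to each TPM, which pulls ratios of low genes towards 0. In 19 of 20 pairs the ratio had 1 sign in both hearts and a mean beyond its SD. The pair without this was Col9a2 and Col9a1, at 2 or 3 counts. With only 2 hearts the rule is easily met, and it was not applied to other pairs of genes. The 19 pairs therefore show no trait particular to collagen chains. An exact sign-flip test over 2 hearts has 0.5 as its smallest two-sided p, so none is given. Among pairs of chains that share a trimer, Col1a1 and Col1a2 (log2 ratio 0.07 ± 0.02) and Col6a1 and Col6a2 (-0.17 ± 0.02) were the nearest to equal of those at 1 TPM or more. The sign of the first turned in the second quantification, to -0.13. Col5a1 over Col5a2 was 0.58 ± 0.18, Col5a1 over Col5a3 0.70 ± 0.03 and Col4a1 over Col4a2 0.89 ± 0.02. Partner chains with a wide gap were Col11a1 and Col11a2 (-1.55 ± 0.14), Col8a1 and Col8a2 (2.55 ± 0.52) and, between related types, Col15a1 and Col18a1 (3.19 ± 0.17, and 2.46 ± 0.12 in the second quantification). Col6a3 exceeded Col6a6 by 3.32 ± 0.28 (2.65 ± 0.09 with complete coding transcripts alone) and Col6a5 by 5.99 ± 0.93, and Col9a3 exceeded Col9a1 by 0.48 ± 0.39. The size of a ratio over a chain near 0 followed the amount added. With 1 added in place of 0.1, Col5a1 over Col11a1 was 4.09, Col6a3 over Col6a5 4.01, Col8a1 over Col8a2 1.35, Col12a1 over Col14a1 -2.70, Col4a5 over Col4a6 3.01 and Col4a5 over Col4a3 2.93. With 0.01 added, Col5a1 over Col11a1 was 7.69, Col11a1 over Col11a2 -2.33 and Col9a3 over Col9a1 1.14, and the signs stayed as they were.

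**Figure D4:**
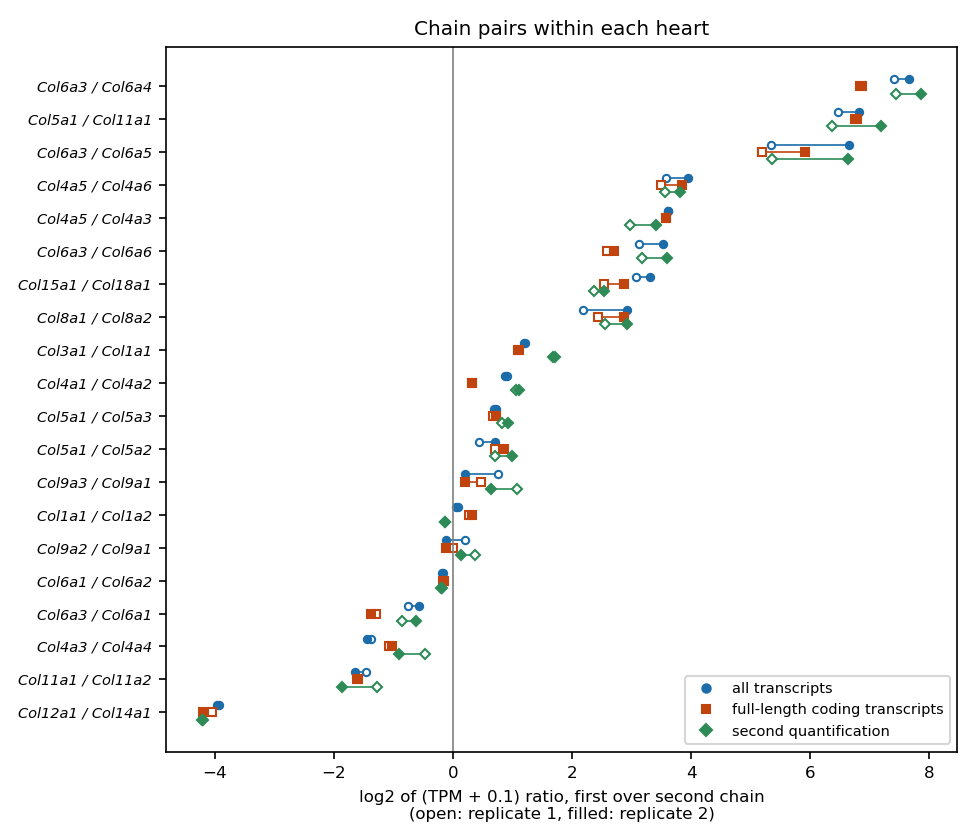
Log2 ratio of TPM + 0.1 of the first over the second chain in 20 pairs, with open symbols for replicate 1 and filled ones for replicate 2, and colour for the transcripts or the quantification used. The 3 estimates lie on the same side of 0 except for Col1a1 over Col1a2 and Col9a2 over Col9a1, whose values lie close to 0.

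Genes that process collagen were described from a list of 50, of which 38 stood at 1 TPM or more in both hearts. For hydroxylation and isomerisation of proline, 9 of 10 did. The highest were P4hb, a subunit of prolyl 4-hydroxylase, at 79.77 and 81.50 TPM, and the isomerase Ppib at 43.42 and 51.48, and the lowest was the catalytic subunit P4ha3 at 0.30 and 0.16. For lysine modification 5 of 6 did, with the hydroxylase Plod1 at 25.51 and 28.44 TPM, the galactosyltransferase Colgalt1 at 14.05 and 14.77, and its relative Colgalt2 lowest at 0.81 and 1.26. All 8 genes of folding and export did. The chaperones Hspa5 (170.6 and 245.5 TPM), which serves all secreted proteins, and Serpinh1 (111.6 and 135.2), which is specific to collagen, led them, and the transcription factor Creb3l1 was lowest at 2.49 and 2.44.

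For propeptide removal 5 of 8 genes stood at 1 TPM or more. The enhancers Pcolce (24.84 and 23.95 TPM) and Pcolce2 (9.41 and 10.41) were the highest, and the protease Tll2 the lowest (0.06 and 0.18). For cross-linking 5 of 7 did, led by the transglutaminase Tgm2 (91.70 and 85.18 TPM) and by Pxdn (20.02 and 22.27), the peroxidase that bonds type IV collagen, with Loxl4 lowest (0.51 and 0.44). Among receptors 6 of 11 did, with the integrin chain Itgb1 at 124.6 and 137.1 TPM and Adgrg1, a receptor for type III collagen, at 17.09 and 13.80. Itga2 was the lowest by mean (0.19 and 0.29), although Gp6 (0.43 and 0.12) was below it in replicate 2. The collagen-specific chaperone Serpinh1 was thus at a level between those of Col4a2 and Col3a1 in both hearts.

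Differences between the 2 hearts were small. After TMM scaling 28 collagens passed a mean of 1 CPM and 16 did not. None was 2-fold or more higher in replicate 2, against 0.310% of the 12910 genes tested, and 1 was 2-fold or more lower, against 0.906%. That gene was Col6a5, with 74 and 31 counts (rounded) and a log2 ratio of replicate 2 over replicate 1 of -1.39 (exact binomial 95% interval -2.05 to -0.77). Intervals cover counting error only, and 1 library per animal gives no replicate test. Without a filter on the mean, genes at 3 counts or fewer in both hearts were given no ratio. Col6a5 was then the 1 collagen of 38 past 2-fold, where 8.87% of all 18951 genes were, and with a mean of 5 CPM or more there were 0. The median absolute log2 ratio was 0.13 over the 28 collagens and 0.12 over all genes tested.

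For 13 of the 28 collagens the interval excluded 0, with 9 lower and 4 higher in replicate 2. The share of all genes with such an interval was not computed, so the 13 cannot be read as particular to collagens. Among the lower were the fibrillar Col1a2 (-0.22), Col3a1 (-0.21), Col1a1 (-0.19) and Col5a2 (-0.14), the FACIT genes Col14a1 (-0.32) and Col12a1 (-0.58), and Col4a6 (-0.39) and Col18a1 (-0.17). The higher were Col15a1 (0.20), Col8a1 (0.38) and, with a direction that turned under spike-in scaling, Col4a1 (0.12, turning to -0.02) and Col4a2 (0.12, turning to -0.03). Scaling by spike-ins moved the median of all genes from 0.01 to -0.13, and the other 11 of these 13 collagens kept their direction under it. Of all 28 collagens, 8 turned, namely Col4a1, Col4a2, Col5a1, Col5a3, Col6a1, Col6a2, Col11a2 and Col27a1. The ratio of fibrillar to basement membrane counts, which no scaling touches, was 1.11 in replicate 1 and 0.908 in replicate 2. Summed fibroblast markers moved by -0.21, with 5 of 6 lower in replicate 2, and endothelial markers by 0.16, with 4 of 5 higher. Epicardium markers moved by -0.35, with 3 of 3 lower, and pericyte markers by 0.03, with 3 of 4 higher. Smooth muscle markers moved by 0.20 when summed, although 3 of 4 were lower. Heart muscle markers moved by -0.04 and macrophage markers by -0.07. Spike-in scaling would shift each of these by -0.14, nearly the size of the endothelial change. The part of these cell types in the collagen values was not tested. Of the 45 maturation genes past the filter, 0 differed by 2-fold, and the chaperone Hspa5 was higher in replicate 2 by 0.52.

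**Figure D5:**
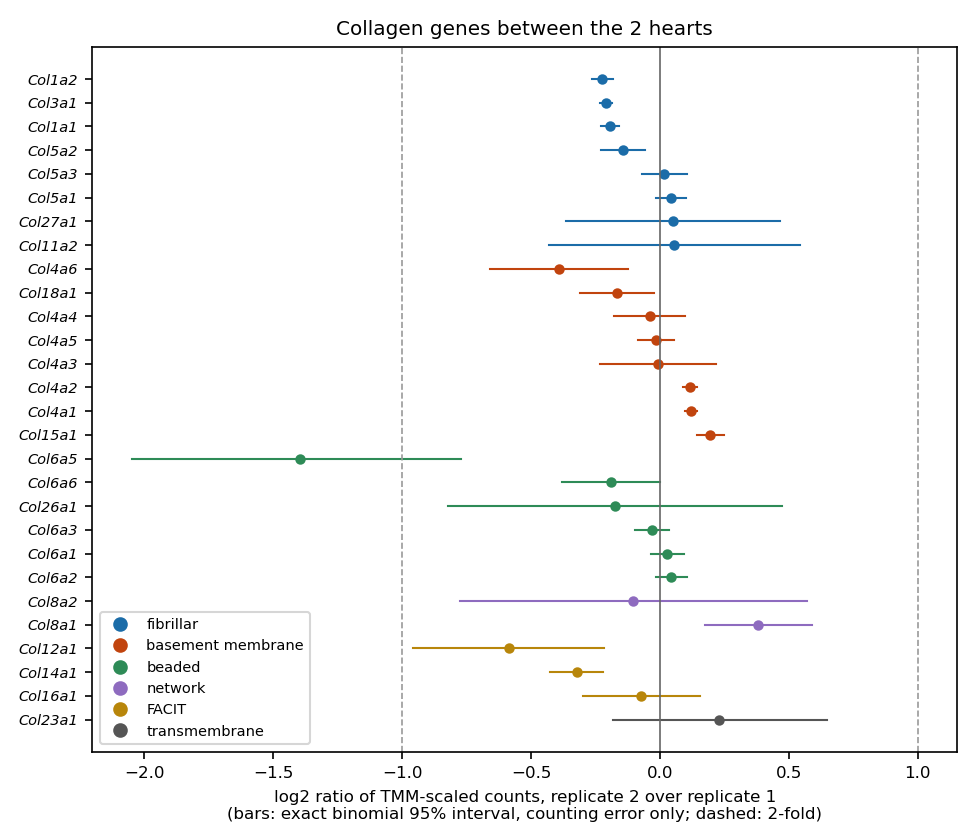
Log2 ratio of TMM-scaled counts of replicate 2 over replicate 1 for the 28 collagen genes with a mean of at least 1 CPM, with bars for the exact binomial 95% interval (counting error only), colour for the group and dashed lines at 2-fold. Col6a5 alone lies beyond a dashed line, and Col1a1, Col1a2 and Col3a1 lie left of 0 while Col4a1, Col4a2 and Col15a1 lie right of it; under spike-in scaling Col4a1 and Col4a2 lie just left of 0.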

How the data were processed

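Expected counts per gene (estimated reads, not always whole) and TPM were deposited by the authors in 1 gene table per heart, and each transcript's percent of its gene in a transcript table. Another transcript table (here the second quantification), also of estimated counts and TPM, was made directly from reads. Text files deposited beside the tables say so, say that the first tables came from a transcriptome alignment, and name mm10 and GENCODE M21. FPKM, also deposited by the authors, was not analysed here. Not given in the sources used here were the tool, its version and settings, and the use of strand. Interval bounds in TPM in the gene table, deposited by the authors, were not used.

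Symbols and coordinates came from GENCODE M21. Spike-ins (97 names, 193998 and 236086 counts) and 26248 transfer RNA rows (3.00 and 1.85 counts) stayed out of library sizes. The members, groups, pairs and lists were chosen with earlier results of these data known. Basement membrane collagens include types XV and XVIII, and beaded ones XXVI and XXVIII. Every member is named, with values in each heart for those at a mean of 10 TPM or more and for chain pairs. From each maturation list the 2 highest genes and the lowest by mean TPM are named. Between hearts, counts were rounded and scaled by TMM (edgeR 4.0.16, R 4.3.3) and genes with a mean of at least 1 CPM were kept, with exact binomial 95% intervals. A count of 0 against more than 3 was set at 3, and no ratio was given where both hearts had 3 counts or fewer. No molecular identifiers are named, and reads are then not independent molecules, so intervals and floors cover counting error only. The labels do not say that the hearts were processed independently, and the spread between them (common biological coefficient of variation 0.109) may be partly technical. The steps were tested on simulated data. Alternatives were a second quantification, posterior mean TPM, other minimums and pseudocounts, leaving out a heart, and other scalings (among them DESeq2 1.42.0). Python 3.11.15, numpy 2.4.6, pandas 2.3.3 and matplotlib 3.10.9 were used.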

Additional observations from a re-analysis of the deposited data

How the results depend on the processing

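The count of collagens at 1 TPM in both hearts was 20, and 18 to 22 under other minimums, quantifications and transcripts, with 20 and 21 when a heart was left out. The count of maturation genes (38) ranged from 37 to 43, and that of chain pairs and of shared leading transcripts moved by less than 1.5 times. The collagen percent of protein-coding TPM was 0.156%, 0.152% in the second quantification and 0.133% with complete coding transcripts alone, and 0.154% to 0.158% when a heart was left out. The setting of complete coding transcripts was chosen after seeing the data. It gave 46.1% for fibrillar (main value 42.4%), 41.0% for basement membrane (44.9%), 11.2% for beaded (10.6%), 1.10% for FACIT (1.57%) and 0.00595% for Col7a1 (0.0222%). The second quantification gave 45.1% for fibrillar and 43.5% for basement membrane, which turns the order of their means, 0.295% for network (0.342%), 9.55% for beaded and 1.38% for FACIT. Posterior mean TPM gave 1.80% for FACIT, 0.194% for transmembrane (0.124%) and 0.0852% for Col7a1. With a heart left out the groups ranged from 40.4% to 44.5% (fibrillar), 43.2% to 46.7% (basement membrane), 10.2% to 10.9% (beaded), 1.51% to 1.64% (FACIT), 0.309% to 0.375% (network), 0.115% to 0.134% (transmembrane) and 0.0166% to 0.0278% (Col7a1). The cause of these shifts was not tested, apart from the short transcripts, which the complete coding setting leaves out by construction. The log2 ratio of Col1a1 over Col1a2 turned from 0.07 to -0.13 in the second quantification, and the uncalled ratio of Col9a2 over Col9a1 from 0.05 to -0.06 with complete coding transcripts. The count of collagens differing 2-fold between the hearts was 1, 0 at a mean of 5 CPM, where fewer genes are tested, and stayed at 1 without a filter on the mean and under the other scalings, the second quantification and a 1.5-fold threshold. Counts of chain pairs, leading transcripts and 2-fold differences need both hearts, so no value without a heart was computed. No paired analysis was possible because there is 1 group. Depth limits the 9 collagens with under 10 counts in both hearts.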
